A study of Drosophila melanogaster with 3 samples.

Results

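The small heat shock genes of Drosophila melanogaster lie close together in one gene cluster on arm 3L, and are set here beside other heat shock loci on 3L and 3R. The members are Hsp22, Hsp23, Hsp26, Hsp27, Hsp67Ba and Hsp67Bc in the 67B cluster, Hsp83 elsewhere on 3L, and Hsp68 and lncRNA:Hsromega on 3R. They are 9 of the 18164 annotated genes used, named from a list of heat shock loci. The list was drawn up after strong peaks at several of them had been seen in these data. The peak signals and positions below are therefore a description and carry no test.

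ChIP-seq, the sequencing of DNA recovered with an immunoprecipitated protein, was applied to whole prepupae aged 24 hours, with males and females pooled. The flies carried a transgene that stably expresses salr, a zinc finger transcription factor, with green fluorescent protein (GFP) at its C terminus. There are 3 libraries, numbered here by their biological replicate number, and they form 1 group, so no condition was compared. Peaks come from all cells of the animal together, and the labels name neither a cell type nor a heat treatment. The labels also conflict. One free-text line describes each library as input, but the fields for assay and antibody, and a control named apart from them, describe immunoprecipitated DNA. The authors deposited peaks per library, peaks of the pooled libraries, and a list of 3839 peaks thresholded on the irreproducible discovery rate (IDR). Those 3839 are the strongest peaks of the pooled list by signal, and a listed peak need not be matched in every library. A summit is the highest point of a peak.

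Small heat shock proteins share the alpha-crystallin domain and hold unfolding proteins without using ATP. Hsp83 is the fly cytosolic Hsp90, and Hsp68 is an inducible relative of the Hsp70 chaperones. lncRNA:Hsromega gives rise to long non-coding RNAs that organise the omega speckles of the nucleus. On heat stress, heat shock factor binds arrays of the short unit GAA in alternating orientation, the heat shock elements, upstream of these genes. Several small heat shock genes are also switched on in normal development, around the start of metamorphosis, by the steroid hormone ecdysone.

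The sequences that carry the peaks are given here, with the parts matching searched words in capitals. The first is the DNA upstream of Hsp27, which holds the strongest peak of any member. It is the 250 bases before the start on the plus strand (chr3L:9383813-9384062, dm6), with the summit at base 108, the word AATATT before the summit and TATAAA near the start.

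Hsp27: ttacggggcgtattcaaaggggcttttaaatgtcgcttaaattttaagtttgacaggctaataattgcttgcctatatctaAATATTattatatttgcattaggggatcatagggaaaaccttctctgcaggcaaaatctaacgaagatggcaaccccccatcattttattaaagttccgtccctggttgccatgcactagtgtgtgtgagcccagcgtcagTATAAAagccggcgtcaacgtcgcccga

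The second is the 250 bases before the more upstream start of Hsp26 on the minus strand (chr3L:9377428-9377677, dm6), with the summit at base 104. TATAAA lies shortly after the summit, and the capitals of alternating C and T after it are GAGAGA read on the other strand.

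Hsp26: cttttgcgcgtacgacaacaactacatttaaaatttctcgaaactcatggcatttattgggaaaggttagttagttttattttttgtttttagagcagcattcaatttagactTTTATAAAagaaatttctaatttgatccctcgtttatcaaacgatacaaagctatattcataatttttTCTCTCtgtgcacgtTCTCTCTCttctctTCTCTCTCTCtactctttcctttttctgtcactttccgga

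The next pair shows genes without an IDR peak at the start. The 250 bases before Hsp23 on the plus strand (chr3L:9381632-9381881, dm6) hold a weaker pooled summit at base 230, just after the TATAAA capitals. The 250 bases before Hsp68 on the minus strand (chr3R:24057311-24057560, dm6) hold a library 2 summit at base 128, and their long run of capitals is 3 overlapping matches to the heat shock element.

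Hsp23: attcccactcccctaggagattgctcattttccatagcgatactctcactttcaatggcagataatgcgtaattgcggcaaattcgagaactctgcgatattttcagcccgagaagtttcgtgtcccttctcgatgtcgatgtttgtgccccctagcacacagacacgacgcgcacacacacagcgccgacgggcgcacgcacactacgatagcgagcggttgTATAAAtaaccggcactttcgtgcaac

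Hsp68: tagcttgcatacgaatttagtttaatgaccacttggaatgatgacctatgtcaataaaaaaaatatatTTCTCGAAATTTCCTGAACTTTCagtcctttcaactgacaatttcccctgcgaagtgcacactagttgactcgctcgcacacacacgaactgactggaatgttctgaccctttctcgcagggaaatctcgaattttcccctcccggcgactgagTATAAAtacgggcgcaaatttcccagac

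The next are 101 bases centred on the IDR summits in the Hsp83 intron (chr3L:3194234-3194334, plus strand, dm6) and in lncRNA:Hsromega (chr3R:21296282-21296382, plus strand, dm6), neither of which holds a searched word.

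Hsp83 intron: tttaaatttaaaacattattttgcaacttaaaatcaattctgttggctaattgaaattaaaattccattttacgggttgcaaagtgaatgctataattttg

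lncRNA:Hsromega: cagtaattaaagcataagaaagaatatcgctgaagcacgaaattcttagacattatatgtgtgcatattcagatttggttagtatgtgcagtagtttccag

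The last are 29 bases centred on the upstream Hsp83 summit (chr3L:3193094-3193122, plus strand, dm6) and on the Hsp22 summit (chr3L:9373416-9373444, plus strand, dm6).

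Hsp83 upstream: tgatctaccctagtattcacaggaagttg

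Hsp22: atgaatgggctcaaaaggagggactttga

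The IDR list held 6 distinct summits within a member or 5 kb of it. They reached 8 of the 9 members, all except Hsp68, beside 34.4% of all genes. An IDR summit lay no more than 1000 bp from a transcription start site (TSS) of 6 members, namely Hsp22, Hsp26, Hsp27, Hsp67Bc, Hsp83 and lncRNA:Hsromega, beside 13.5% of all genes. Since the members were chosen from these peaks, nothing is read from either difference. The 3 IDR summits of the 67B cluster served 6 members between them, so members of the cluster are not independent. Per 10 kb of sequence, the member windows held 0.730 IDR summits and all arms held 0.287.

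Each of the 6 IDR summits had a summit within 100 bp in all 3 libraries. The same share over all IDR summits is not given here, so this is not read as a trait of the members. The strength of a peak is given as relative signal, its deposited signal divided by the median signal of the same list, so that 1 is an ordinary peak of that list. Rank 1 is the strongest peak of a list. The libraries and the pooled alignment each list 30000 peaks, which is a limit on the list and not a count of bound sites. Library 2 stands apart from the other libraries in listing more summits at these genes (42, against 20 in library 1 and 16 in library 3). Among the strongest 3839 peaks of each library, the counts were 8 in library 2 and 6 in libraries 1 and 3. The tagged gene salr carried an IDR peak of rank 171, with a relative signal of 12.2 ± 1.56 (SD, n = 3 libraries). The flies carry a salr transgene and no control list was compared, so this peak does not settle the conflict in the labels.

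Among the small heat shock genes, Hsp27 (FBgn0001226, 3L, 9384063 to 9385694, plus strand) encodes a nuclear member of the family. Its IDR peak spans 9383762 to 9384074, and the summit at 9383920 lies 143 bp before the TSS in intergenic sequence. The relative signal was 25.7 in library 1, 18.7 in library 2 and 29.2 in library 3. All 3 values exceed every value of the other 5 IDR peaks of the members in any library. The mean was 24.5 ± 5.34 (SD, n = 3), and the peak ranked 28, 40 and 18 in libraries 1, 2 and 3, and 25 in the IDR list. In each library it stood 2.69, 2.70 and 3.16 times above the next strongest of these peaks. The library summits lay 165, 114 and 139 bp before the TSS, a spread of 51 bp. The peak also falls in the windows of Hsp23 and Hsp67Ba, whose own starts are farther away.

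Hsp26 (FBgn0001225, 3L, 9376418 to 9377427, minus strand) encodes a cytosolic small heat shock protein. Its IDR peak spans 94 bp from 9377520 to 9377613, with the summit at 9377574. The narrow width is that of the IDR and pooled lists, and libraries 1, 2 and 3 give the peak 304, 336 and 336 bp. The IDR summit lies 147 bp before the start at 9377427 and 199 bp before the start at 9377375. The relative signal was 5.56 in library 1, 3.53 in library 2 and 5.81 in library 3. Library 2 was the lowest of the 3, as it was at each of the other 5 peaks and in the median over all matches to IDR peaks. The mean was 4.97 ± 1.25 (SD, n = 3), at ranks 915, 1528 and 1119 in libraries 1, 2 and 3. A TSS of the antisense transcript asRNA:CR43481 lies within 1000 bp of the same summit, so the peak cannot be given to Hsp26 alone by position.

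Hsp22 (FBgn0001223, 3L, 9372931 to 9374964, plus strand) encodes the mitochondrial small heat shock protein. It shares the start at 9372931 with CG4456, also called Hsp67Bb, and has a second start at 9373997. The IDR peak spans 9373258 to 9373601, and its summit at 9373430 lies 499 bp after the shared start and 567 bp before the second one. It falls in coding sequence of CG4456 and in a 5′ untranslated region of Hsp22. The relative signal was 1.87 in library 1, 1.46 in library 2 and 2.83 in library 3, all below every value of the other 5 IDR peaks. Library 2 also listed a separate summit 25 bp after the shared start, at 2.01, above its value at the IDR peak. The IDR peak had a mean of 2.05 ± 0.703 (SD, n = 3), and its IDR rank was 3531, near the end of the list. Its library summits spread over 85 bp, the widest of the 6 peaks.

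This same peak is what counts Hsp67Bc among the genes with an IDR promoter peak. Hsp67Bc (FBgn0001229, 3L, 9371511 to 9372497, minus strand) encodes a small heat shock protein that works in protein quality control. Its TSS is 933 bp from the Hsp22 summit. Nearer to its own start, library 2 listed a summit 43 bp after the TSS at a relative signal of 2.25, library 1 listed one 311 bp after it at 1.60, and library 3 listed none closer than the Hsp22 peak. The summits of libraries 1 and 2 lay farther apart than the 100 bp used for matching.

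Hsp23 (FBgn0001224, 3L, 9381882 to 9382765, plus strand) encodes a cytosolic small heat shock protein. It has IDR peaks within 5 kb, those of Hsp26 and Hsp27, and none within 1000 bp of its TSS. The pooled list holds a summit 21 bp before the start at a relative signal of 1.88, rank 5693, below the IDR limit. Library 2 listed it at 14 bp before the start with 2.09, and library 3 at 21 bp before the start with 1.66. In library 1 the nearest summit was 517 bp before the start, at 0.983. The Hsp23 start was thus listed by libraries 2 and 3 and not by library 1.

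Hsp67Ba (FBgn0001227, 3L, 9377802 to 9379534, minus strand) carries the alpha-crystallin domain of the family. The Hsp26 summit is 1960 bp from its start. Library 2 listed a summit 91 bp before its TSS at a relative signal of 2.04. Library 3 listed its nearest summit 836 bp after the TSS at 1.01, and library 1 listed its nearest 1172 bp before it at 1.79. The antisense transcript asRNA:CR43481 overlaps this gene, and a pooled summit in its exon at 9380724, of relative signal 1.79, was matched in all 3 libraries without being in the IDR list.

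**Figure D1:**
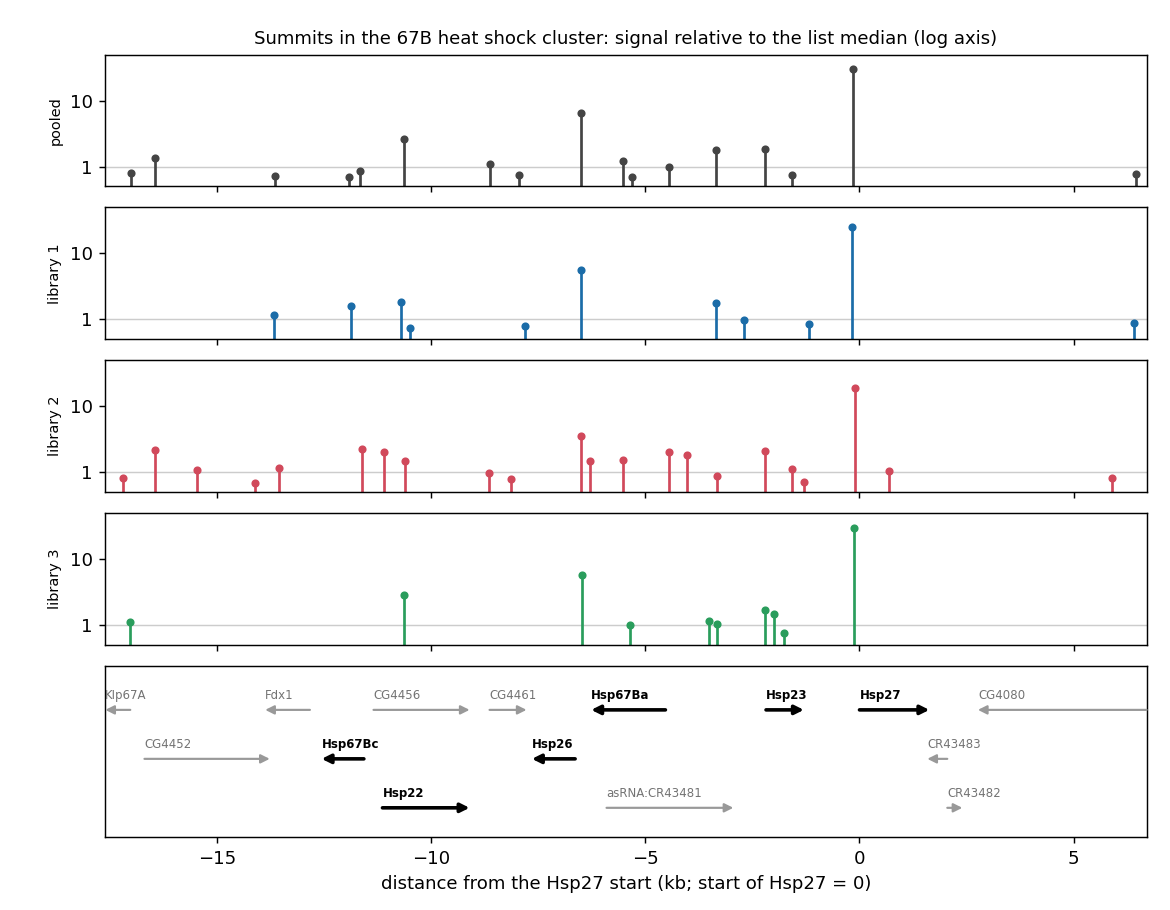
The 67B cluster. Each stem is a summit within a member or 5 kb of it, placed by its distance in kb from the Hsp27 start, and its height is the relative signal on a log axis (1 is the median peak of the list), in the pooled list and in libraries 1 to 3. Members are in black below, other genes in grey. The Hsp27 peak is the tallest in every panel (18.7 to 29.2 in the libraries), the Hsp26 peak is second (3.53 to 5.81), and library 2 has the most stems, 22 against 11 in library 1 and 10 in library 3.

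Hsp83 (FBgn0001233, 3L, 3192969 to 3197059, plus strand) is present in unstressed cells and induced further by heat. It is the one member with 2 IDR peaks of its own. The upstream peak spans 3193005 to 3193187, with its summit at 3193108, 139 bp after the first start and 108 bp before the start at 3193216. The relative signal was 9.54 in library 1, 6.91 in library 2 and 8.50 in library 3, and the summits of the libraries lay within 3 bp of each other. That is the tightest agreement in position among the 6 peaks. The mean was 8.32 ± 1.33 (SD, n = 3), at ranks 303, 417 and 552 in libraries 1, 2 and 3. CG14965 also has a TSS within 1000 bp.

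The second Hsp83 peak spans 3194177 to 3194363 in the first intron, which runs from 3193368 to 3194498. Its summit at 3194284 is 1068 bp after the start at 3193216 and 215 bp before the second exon. The relative signal was 8.73 in library 1, 6.22 in library 2 and 9.22 in library 3, with a mean of 8.05 ± 1.61 (SD, n = 3). The 2 Hsp83 peaks are 1176 bp apart and were close in strength. The upstream one was higher in libraries 1 and 2 and the intronic one in library 3, so their order is within the spread between libraries. A further pooled summit in the Hsp83 window, at 3199119, lies 29 bp after the TSS of gry, with a relative signal of 2.27. It was matched in libraries 1 and 2 and not in library 3.

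lncRNA:Hsromega (FBgn0001234, 3R, 21296127 to 21317836, plus strand) has its IDR peak from 21296255 to 21296391. The summit at 21296332 is in an exon of the transcript that begins at 21296127, 205 bp after that start, and 289 bp before the start at 21296621 used by the other annotated transcripts. The relative signal was 6.06 in library 1, 4.64 in library 2 and 7.74 in library 3. The range overlaps that of Hsp83, whose intronic peak reached 6.22 in library 2, but within each library the lncRNA:Hsromega peak was lower than both Hsp83 peaks. The mean was 6.15 ± 1.55 (SD, n = 3), at ranks 783, 920 and 668 in libraries 1, 2 and 3. Library summits spread over 17 bp. Pooled summits inside the gene at 21297288 and 21297925 were much weaker, at 1.37 and 1.43. In library 2 a separate summit lay 56 bp before the start at 21296621, at 1.66.

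Hsp68 (FBgn0001230, 3R, 24055080 to 24057310, minus strand) was the member without an IDR peak. Its single pooled summit, at 24050769, lies 13 bp after the TSS of the neighbouring gene Atg6. Library 2 listed a summit 123 bp before the Hsp68 TSS at a relative signal of 2.56, rank 2820, and weaker ones in the coding sequence at 0.892 and 1.09. Library 1 listed 2 summits in the window, both nearer to Atg6 and Pisd, and library 3 listed 0. The Hsp68 promoter summit therefore rests on 1 library, and it is not in the pooled list.

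**Figure D2:**
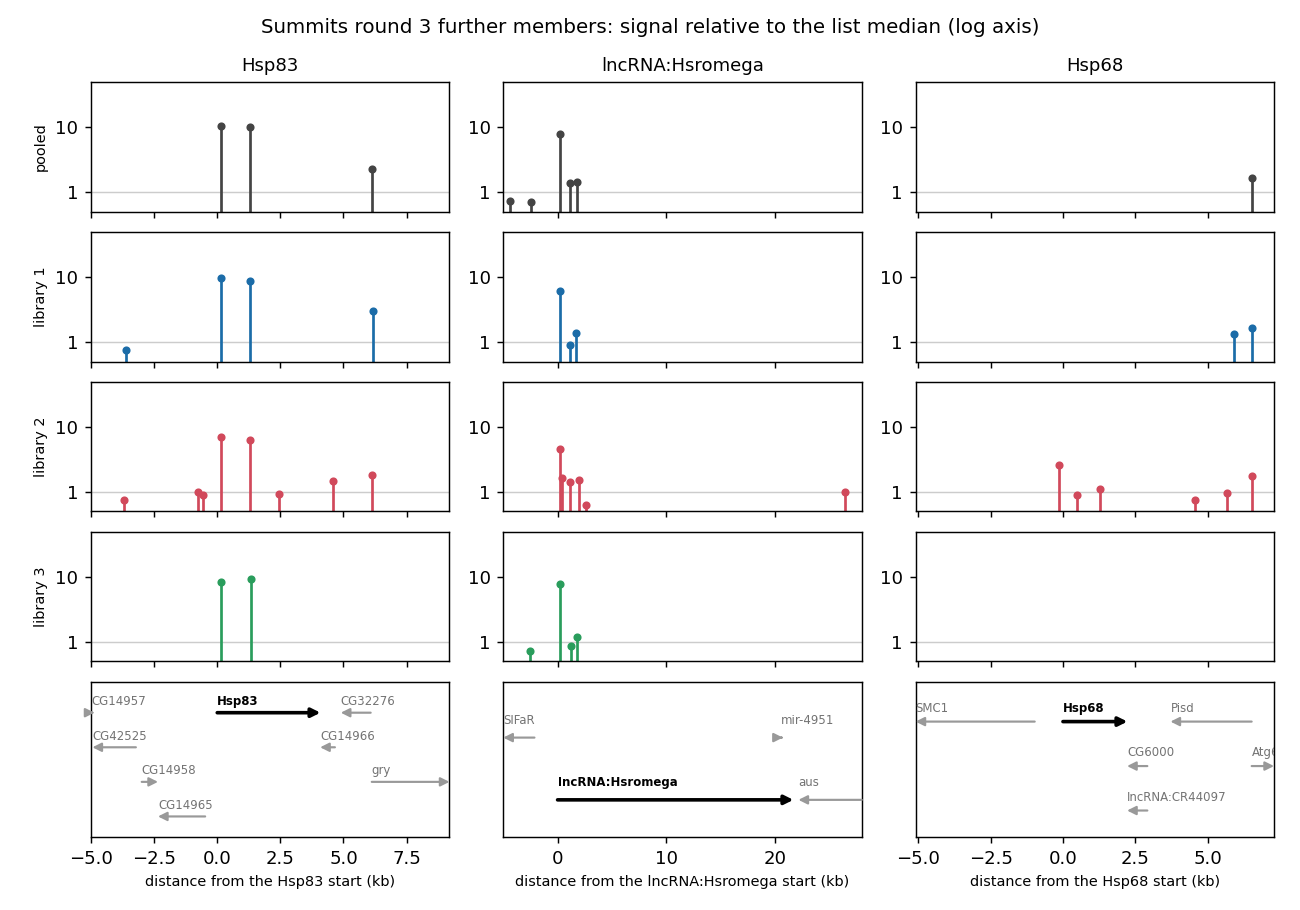
Hsp83, lncRNA:Hsromega and Hsp68. Stems are summits by distance in kb from the most upstream start of each gene (positive in the direction of transcription), with relative signal on a log axis, in the pooled list and libraries 1 to 3. Hsp83 shows its pair of peaks in every panel (6.22 to 9.54 in the libraries), lncRNA:Hsromega shows 1 tall peak (4.64 to 7.74), and Hsp68 has a summit at its start in library 2 alone (2.56).

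The order of the 6 IDR peaks was the same in libraries 1 and 2, namely Hsp27, Hsp83 upstream, Hsp83 intron, lncRNA:Hsromega, Hsp26 and Hsp22. Library 3 differed by exchanging the Hsp83 peaks. Divided by another reference, the median over each library's matches to IDR peaks, the means were 6.89 for Hsp27, 2.37 and 2.27 for the upstream and intronic Hsp83 peaks, 1.72 for lncRNA:Hsromega, 1.40 for Hsp26 and 0.569 for Hsp22. On that scale a typical IDR peak is 1, so 5 of the 6 were above typical and the Hsp22 peak was below it.

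**Figure D3:**
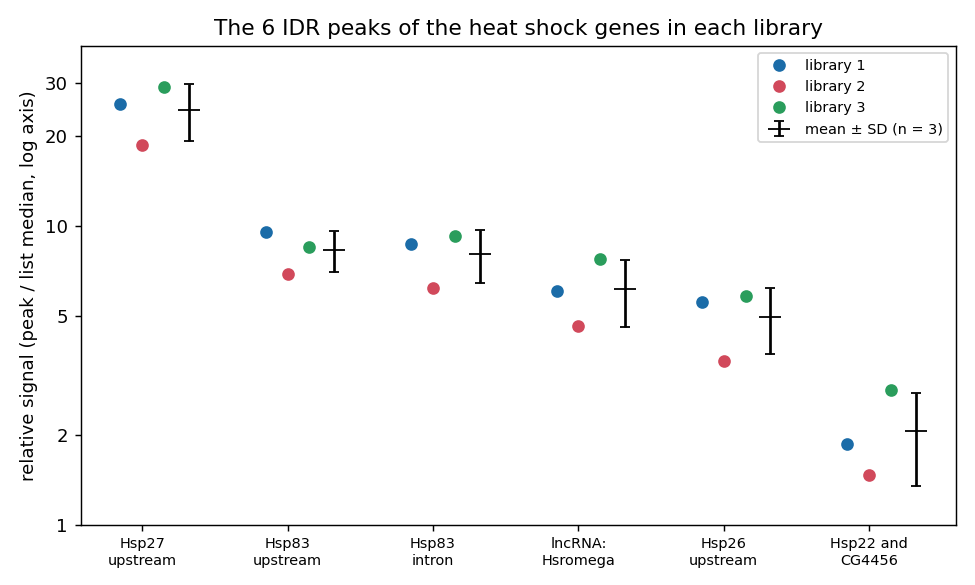
Relative signal (log axis, peak signal over the median of the library's list) of the 6 IDR peaks in libraries 1, 2 and 3, with mean ± SD over the 3 libraries in black. Hsp27 (24.5 ± 5.34) stands clear of the others, and the Hsp83 peaks overlap (8.32 ± 1.33 and 8.05 ± 1.61). Library 2 is lowest at every peak, as it is in the median over all matches to IDR peaks.

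Beyond the IDR peaks, the members' windows held 26 pooled summits, of which 20 were outside the IDR list. Of these 20, 2 were matched in no library, 11 in 1 library, 5 in 2 libraries and 2 in 3 libraries. In these windows the weaker summits are thus mostly those of 1 library. The same split over all pooled summits is not given here. Within 5 kb, the pooled list had a summit at 9 of 9 members, beside 79.4% of all genes. Libraries 1 and 2 had one at 9 of 9, beside 89.4% and 81.3%, and library 3 at 8 of 9, beside 76.3%, so these counts separate the members little from other genes. Libraries 1, 2 and 3 listed 20, 42 and 16 summits in these windows, or 2.43, 5.11 and 1.95 per 10 kb, where each list holds 2.24 per 10 kb over all arms. Of the 42 summits of library 2, 24 had no counterpart in the pooled list, against 6 of 20 in library 1 and 3 of 16 in library 3. These shares over the whole library lists are not given here. Library 2 thus lists more summits at these loci than the other libraries, most of them outside its strongest 3839, while its IDR peaks are relatively lower. The lower values are not particular to the members. The median relative signal over all matches to IDR peaks was 3.41, 3.01 and 4.21 in libraries 1, 2 and 3.

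The distance to the nearest start was also counted over all summits of each list, IDR peaks included. At a distance of 200 bp, a limit chosen after the summits were seen, library 2 had a summit at 9 of 9 members, beside 27.0% of all genes. Library 1 had one at 4 of 9, beside 26.6%, and library 3 at 4 of 9, beside 17.5%. The pooled list had one at 6 of 9, beside 22.6%. In the IDR list 3 of 9 members, Hsp26, Hsp27 and Hsp83, had one, beside 6.80% of all genes. Hsp26, Hsp27 and Hsp83 are the members with a summit that near in all 3 libraries. The call for Hsp22, Hsp67Ba, Hsp67Bc and Hsp68 at this distance came, among the libraries, from library 2 without the others. The IDR peak of lncRNA:Hsromega lay at the edge of this limit, 199, 211 and 216 bp after the start at 21296127 in libraries 1, 2 and 3. Library 2 counted lncRNA:Hsromega through its separate summit 56 bp before the start at 21296621. At 1000 bp the counts were 7, 9 and 8 of 9 members in libraries 1, 2 and 3, beside 51.5%, 48.6% and 38.7% of genes. The pooled list had a summit within 1000 bp at 8 of 9 members, beside 43.5%. Depth is unknown, so whether library 2 differs in depth or enrichment was not tested.

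**Figure D4:**
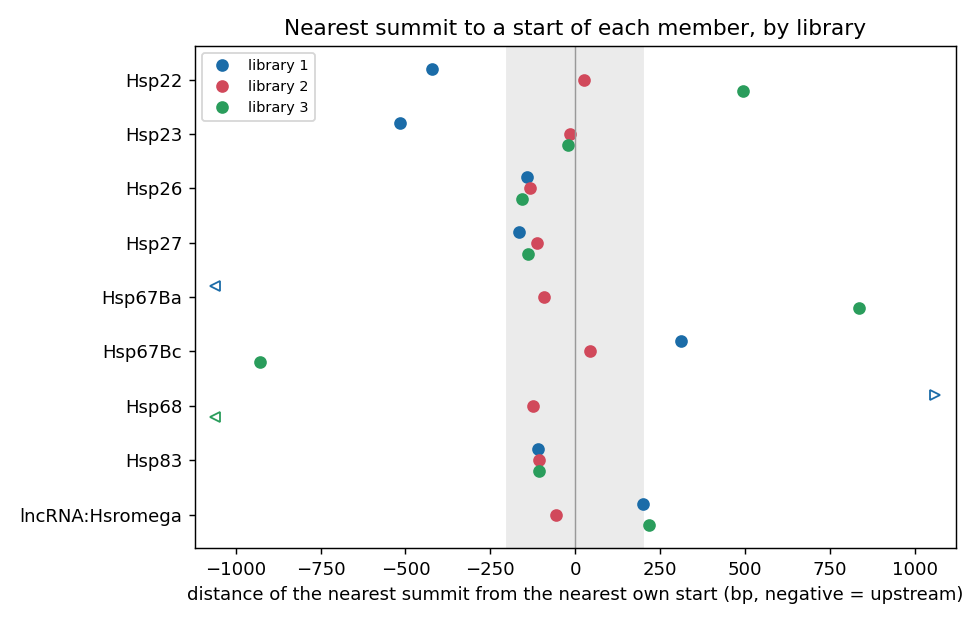
Distance in bp from the nearest start of each member to the nearest summit of libraries 1, 2 and 3 (negative is upstream, the grey band marks 200 bp on each side, open triangles lie beyond 1000 bp). All 9 points of library 2 lie in the band, and Hsp26, Hsp27 and Hsp83 have all 3 libraries in it.

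Sequence was not used to choose the members. For each word, a member is counted if any of its starts holds it, whereas each share of starts is over single windows. Members with 2 starts thus have more chances than a single window. TATAAA, the core of the TATA box that positions transcription starts, was in the window of 250 bases before to 50 after a TSS (both strands) for 8 of 9 members, all but Hsp67Ba, and for 41.4% of 23584 windows of all starts. Counted on the transcribed strand with its first base 20 to 35 bases before a start, limits chosen after the matches were seen, it was found at 8 of 9 members and at 7.09% of all genes. The first base was 27 to 30 bases before the start in each. For genes with 2 starts, the start with the word is the downstream one, at 9373997 for Hsp22, 9377375 for Hsp26, 3193216 for Hsp83 and 21296621 for lncRNA:Hsromega. Measured from the start with the word, the nearest IDR summits of Hsp83, Hsp27, Hsp26, lncRNA:Hsromega and Hsp22 lay 108, 143, 199, 289 and 567 bp upstream. For Hsp67Bc it was the Hsp22 summit, 933 bp upstream, and for Hsp23 it was the Hsp27 summit, 2038 bp downstream. Hsp68 holds the word and has no IDR summit in its window.

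The heat shock element was searched on both strands as GAA, TTC and GAA in that order, with a pair of free bases between neighbouring units. It was in the promoter window of 1 member, Hsp68, and of 0.411% of all starts. Hsp68, which holds 3 overlapping matches between 182 and 160 bases before the TSS, is also the member without an IDR peak. That is 1 gene, and a link between the element and the peaks was not tested. With the window widened to 500 bases before the start, 2 members held the element, Hsp68 and Hsp23, beside 0.755% of starts. The Hsp23 match began 405 bases before the TSS. With at most 1 of the 9 fixed letters different, 6 members held it, Hsp22, Hsp23, Hsp26, Hsp68, Hsp83 and lncRNA:Hsromega, beside 8.18% of starts. In Hsp83 those near matches began 63 to 78 bases before the start at 3193216, on the start side of the summit. No match says only that these letters are not in the window.

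Other words were searched on both strands in the same windows. GAGAGA, the unit bound by GAGA factor, was present in 3 members, Hsp22, Hsp26 and lncRNA:Hsromega, and in 13.7% of all starts. AATATT was present in 3 members, Hsp22, Hsp27 and Hsp83, beside 27.9%. TATCGATA, the core of the DRE element of many broadly used promoters, was present in 1 member, Hsp83, beside 6.79%. TTATGAAAT was present in 0 members, beside 1.26%. With 500 bases before the start, GAGAGA was present in 5 members, now with Hsp27 and Hsp83, beside 20.6%. AATATT was then present in 5, beside 45.3%, TATCGATA in 2, beside 8.88%, and TTATGAAAT in 0, beside 2.29%. A GAGAGA match at 9383792 to 9383797 lies within the Hsp27 IDR peak.

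Within 50 bp of the 6 IDR summits the matches were few. TATAAA was at 1 of 6 summits (Hsp26) beside 18.1% of the 3839 IDR summits, and AATATT at 1 of 6 (Hsp27) beside 14.8%. The heat shock element, GAGAGA, TATCGATA and TTATGAAAT were at 0 of 6, beside 0.156%, 5.63%, 1.12% and 0.521%. The 101 bases round the summits also differed in base composition. G and C made up 36.6% at Hsp27, 48.5% at the upstream and 23.8% at the intronic Hsp83 summit, 33.7% at lncRNA:Hsromega, 24.8% at Hsp26 and 39.6% at Hsp22. The median over all IDR summits was 34.7%, with quartiles at 29.7% and 42.6%, so the members' summits range from below the lower quartile to above the upper one.

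The wider heat shock and chaperone system gives a setting for these genes. Of 31 further genes listed, all 31 were found, and for 6 an IDR summit lay no more than 1000 bp from a TSS, beside 13.5% of all genes. They were stv, a co-chaperone of the BAG family (rank 845, relative signal 5.35 ± 1.91, SD, n = 3), and Hsc70-5, the mitochondrial Hsp70 (rank 1114, 4.68 ± 2.67, SD, n = 3). The others were Hsc70-4, the main cytosolic Hsp70 of unstressed cells (rank 1502, 3.82 ± 1.98, SD, n = 3), Gp93, the Hsp90 of the endoplasmic reticulum (rank 2453, 2.46 ± 0.0767, SD, n = 2), Cdc37, an Hsp90 co-chaperone (rank 3701, 2.50 in its 1 matched library), and CG4456, through the Hsp22 peak. The peaks at Hsc70-4, Hsc70-5, Gp93 and Cdc37 lie within 1000 bp of starts of other genes too. The means of Hsp27, Hsp83 and lncRNA:Hsromega were above those of all of these genes. The Hsp26 mean of 4.97 was below that of stv, and the Hsp22 mean of 2.05 was below those of stv, Hsc70-5 and Hsc70-4. The values of Gp93 and Cdc37 leave out libraries without a match, so they are not set beside the Hsp22 mean. In the IDR list the Hsp22 peak, at rank 3531, stood below Gp93 and above Cdc37. These orderings were not tested.

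The heat-inducible Hsp70 genes, the relatives of Hsp68, had a summit within 1000 bp of a TSS in 0 of 6 cases in the IDR, pooled and library lists. They are near-identical copies, and how reads that fit several copies were handled is not given in the sources used here, so this count is uncertain. Hsf, which encodes heat shock factor, had a summit within 1000 bp in library 2 and in neither of the other libraries nor the pooled list.

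The windows of 5 kb decide some of these assignments. Just inside, the Hsp26 summit is 4308 bp from Hsp23, and the Hsp22 and Hsp27 summits are 4372 and 4386 bp from Hsp67Ba. Just outside, the Hsp26 summit is 5077 bp from Hsp67Bc. Hsp67Ba owes its IDR summits to peaks that lie nearer to the starts of its neighbours.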

How the data were processed

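ChIP-seq peak lists of 3 libraries from salr-GFP prepupae were analysed. Per the labels, the authors sheared chromatin by sonication to between 200 and 800 bp and used the dm6 assembly. They deposited a list per library, a pooled list and an IDR list. Nothing on the aligner or caller is given in the sources used here. Per the notes deposited with the files, each list used the same control file. The deposited signal of a peak is an enrichment computed by the authors, on an unstated scale. The deposited −log10 q-value had a plateau (3.83 at 11.3% of pooled peaks) and was not used for ranking. The deposited summit offset, in bp, gave each summit position. No read counts are given, so depth is unknown. The 3839 IDR peaks are the strongest of the pooled list (lowest 111.91, highest pooled signal outside it 111.899).

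Genes came from Ensembl BDGP6.54, release 115 (18164 genes, 23581 TSS positions), and sequences from the RefSeq Release 6 genome, which has the same coordinates as dm6. Summits within 100 bp were matched. Relative signal is a peak's signal over the list median, with no pseudocount. No test was run. The library is the replicate. The code that assigns summits to genes was checked with 200 simulated summits at the edge of each window, and 100% were recovered. This checks that the rule was coded as stated, and does not measure wrong assignments. Members, gene lists and words were chosen with earlier results of these data known. Every member is described, with genes at its IDR summits and the further chaperone genes that have an IDR promoter summit. Alternatives changed the window, the TSS distance, the matching, the list and the libraries. Python 3.11.15, numpy 2.4.6, pandas 2.3.3 and matplotlib 3.10.9 were used.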

Additional observations from a re-analysis of the deposited data

How the results depend on the processing

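The counts of members and summits stayed within 1.5 times their values for windows of 1, 2 and 10 kb, TSS distances of 500 and 2000 bp, the stronger 1919 IDR peaks, and each library left out. When each replicate was left out and matches were required among the strongest peaks of both others, the Hsp22 peak was lost each time, which left 7 of 9 members within 5 kb, 5 summits and 4 of 9 members within 1000 bp of a TSS. A TSS distance of 200 bp, chosen after the data were seen, gave 3 members in place of 6. With 50% reciprocal overlap of intervals in place of summits, 3 of the 6 IDR peaks were matched in all libraries. Intervals of very unlike width cannot reach this overlap, wherever their summits lie. The Hsp26 interval spans 94 bp in the IDR list and 304, 336 and 336 bp in libraries 1, 2 and 3. That of lncRNA:Hsromega spans 137 bp, against 304, 336 and 336 bp. The intronic Hsp83 interval spans 187 bp, against 84 bp in library 2. Why the widths differ was not tested. The heat shock element was found in 2 members with 500 bases before the start and in 6 with at most 1 letter different, in place of 1, because these searches are wider. Dividing by the median over IDR matches changed the scale of all 6 relative signals and not the order of their means. Each library is divided by 1 value, so the order within a library could not change. With 1 library left out, the Hsp27 mean ran between 22.2 and 27.4. No paired analysis was possible because there is 1 group of libraries and nothing to pair it with. The limits are 1 group, an unknown depth, a signal on an unstated scale and labels that conflict on the input.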
